A study of Arabidopsis thaliana with 9 samples.

Results

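The genes described here are 38 Arabidopsis thaliana genes of abscisic acid (ABA) synthesis, perception, signalling and breakdown, chosen by their locus identifiers from the 33977 genes counted in each library. They fall into 6 steps: 8 PYR/PYL receptors, 9 clade A protein phosphatases (PP2Cs), 3 SnRK2 kinases, 7 transcription factors, 7 synthesis enzymes and 4 CYP707A enzymes of breakdown. Of the 38, 33 had enough counts to be tested. RNA was sequenced from aboveground tissue of Col-0 plants at bolting in 9 libraries, 3 biological replicates in each of 3 groups. The wild type (WT) carries no named transgene. The other groups are both labelled PPD3-RNAi T+, a genotype with an RNA interference construct against PPD3, a PsbP-domain protein of the plastid, and differ in phenotype label, dwarf or large. Seeds had 2 days of stratification at 4 °C, and the chamber ran at 22 °C and 20 °C under a 12 h photoperiod. The sources used here do not give the construct's promoter, the number of independent lines or any pooling of plants.

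PPD3 itself did not check the labels. Its level was 115, 100.3 and 91.1 CPM, a count per gene adjusted for the size of its library, in the WT libraries, 86.7, 77.9 and 108 CPM in large, and 87.6, 128 and 96.5 CPM in dwarf. The 3 groups overlapped, and the log2 fold change against WT was 0.03 in dwarf (adjusted p = 0.934) and -0.17 in large (adjusted p = 0.708; edgeR quasi-likelihood test). The groups are therefore called here the libraries labelled dwarf and large, and every direction below rests on those labels.

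ABA is a plant hormone of drought, seed dormancy and bud and stomatal control. When ABA binds a PYR/PYL receptor, the receptor holds a clade A PP2C in an inactive complex, which frees SnRK2 kinases to phosphorylate ABF and ABI5 transcription factors and ion channels. The factors bind the ABA-responsive element, whose core is ACGTG, in front of their targets, and the PP2C genes are themselves among the genes that ABA raises, while several receptor genes are known to be lowered by it. ABA is made from carotenoids through zeaxanthin epoxidase, the NCED dioxygenases and later oxidation steps, and is removed by the CYP707A hydroxylases.

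In the libraries labelled dwarf, PYL4, PYL5 and PYL6 rose by between 2.18-fold and 3.19-fold over WT, and CYP707A2, an ABA 8'-hydroxylase, rose 3.17-fold. None of the other 29 tested members passed the threshold of an adjusted p of 0.05 in that comparison by edgeR's quasi-likelihood test, while DESeq2's Wald test also called ABI2, SNRK2.2, ABF2 and ABF3 and limma voom ABI2, HAB2, ABF2, ABF3, ABA1 and ABA2. DESeq2 called 16.0% of all genes there and limma voom 23.3%. At an unadjusted p under 0.05 stood 11 of 33 members in dwarf (33.3%), 6 in large (18.2%) and 8 between dwarf and large (24.2%), beside 26.2, 18.7 and 19.9% of all genes. Of all 19870 genes tested, 8.76% passed it, 6.54% as higher and 2.22% as lower, against 4 of 33 members, all higher. The split of all called genes moved from 1299 higher and 441 lower to 1050 higher and 762 lower when libraries were scaled by upper-quartile factors. It also moved with the runs of neighbouring genes that stood above WT in PPD3-RNAi libraries, described below. With the genes of these runs left out, 586 of 14976 genes (3.91%) were called, 369 higher and 217 lower, beside 4 of 27 members. With the median step of the runs taken out, 4.30% of all genes were called, 436 higher and 419 lower, beside 5 of 33 members. In the libraries labelled large, 1 of 33 members, PYL5, rose over WT, beside 4.22% of all genes (3.89% higher and 0.327% lower). Between dwarf and large, 1 of 33 members, PYL4, differed, beside 0.649% of all genes (0.272% higher and 0.377% lower). Dwarf and large were both set against the same WT libraries, so their fold changes share those values. In whole tissue, a change in the number of cells of a type and a change in RNA per cell cannot be told apart.

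**Figure D1:**
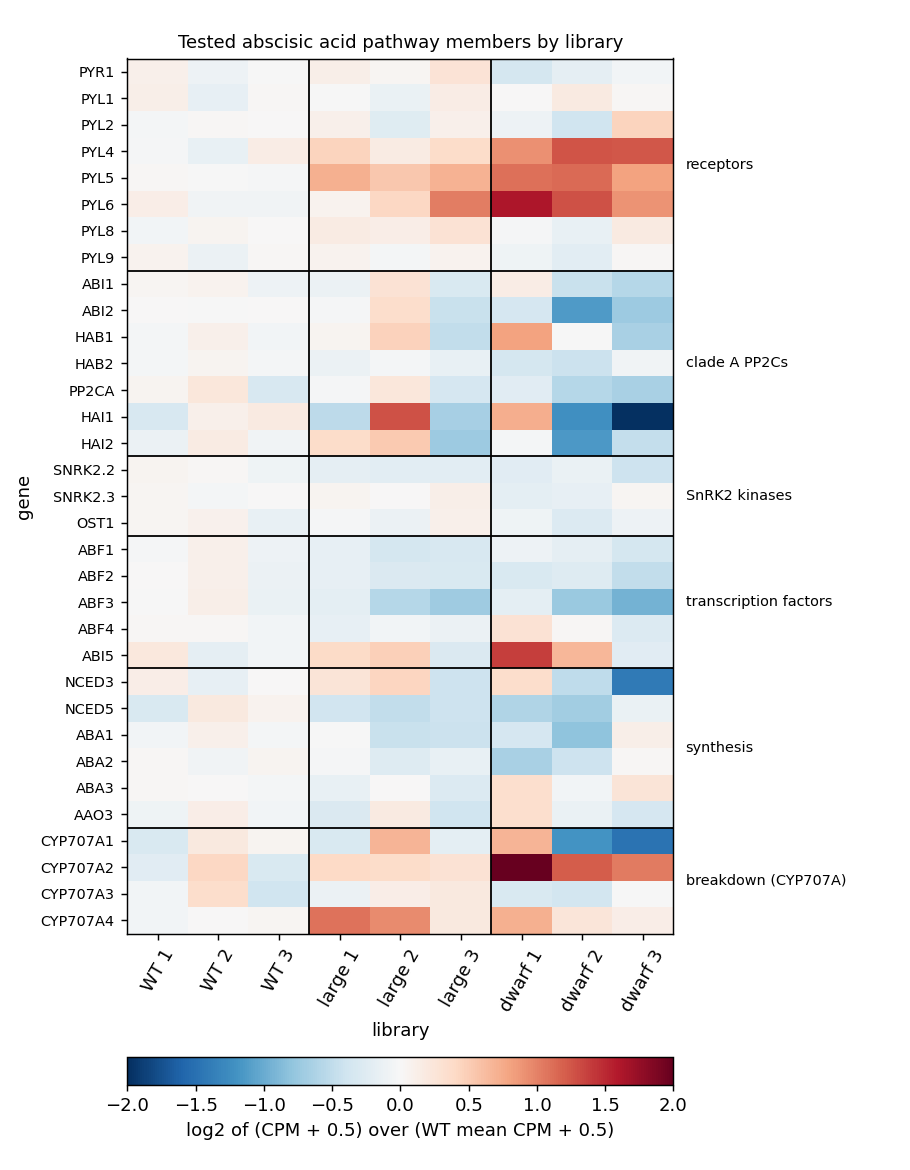
Each row is 1 of the 33 tested genes and each column 1 library. Colour is the log2 ratio of CPM to the WT mean, after 0.5 CPM was added to both. PYL4 and PYL5 were above the WT mean in all 6 PPD3-RNAi libraries, and HAI1 and CYP707A1 varied widely between libraries of 1 group.

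The sequences around the annotated starts of the 4 genes that passed the threshold are shown because the results turn on these genes. From 250 bases before to 50 bases after the start, none of them holds ACGTG or the core of the dehydration-responsive element, CCGAC, on either strand. For contrast, the windows of PP2CA, a PP2C, and ABI5, a bZIP factor, are shown, since with HAI2 they hold the most ACGTG sites of the members, 4 each. Capitals mark ACGTG or its complement CACGT and CCGAC or its complement GTCGG, and overlapping matches, as in CACGTG, count as 1 site. The bases were read from the RefSeq TAIR10.1 genome and run 5′ to 3′ on the gene's strand. The windows are chr2:16049668-16049967 (plus) for PYL4, chr5:1608738-1609037 (plus) for PYL5, chr2:16846145-16846444 (minus) for PYL6, chr2:12499674-12499973 (minus) for CYP707A2, chr3:3585801-3586100 (minus) for PP2CA and chr2:15207587-15207886 (minus) for ABI5.
PYL4: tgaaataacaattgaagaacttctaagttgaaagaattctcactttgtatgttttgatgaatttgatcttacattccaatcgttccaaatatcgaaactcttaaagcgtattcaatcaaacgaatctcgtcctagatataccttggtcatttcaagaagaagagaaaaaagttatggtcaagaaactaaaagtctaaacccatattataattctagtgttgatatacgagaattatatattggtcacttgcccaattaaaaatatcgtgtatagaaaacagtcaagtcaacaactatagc
PYL5: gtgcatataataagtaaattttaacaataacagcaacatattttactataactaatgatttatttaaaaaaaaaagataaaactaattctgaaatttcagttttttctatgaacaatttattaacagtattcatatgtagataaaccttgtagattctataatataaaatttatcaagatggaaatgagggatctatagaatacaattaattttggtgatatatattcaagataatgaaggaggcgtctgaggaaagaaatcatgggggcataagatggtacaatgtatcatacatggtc
PYL6: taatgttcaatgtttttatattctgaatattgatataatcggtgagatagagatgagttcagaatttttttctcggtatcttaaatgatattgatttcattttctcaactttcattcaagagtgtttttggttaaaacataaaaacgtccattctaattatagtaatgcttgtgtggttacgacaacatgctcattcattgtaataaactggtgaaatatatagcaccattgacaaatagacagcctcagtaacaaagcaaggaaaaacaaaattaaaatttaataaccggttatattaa
CYP707A2: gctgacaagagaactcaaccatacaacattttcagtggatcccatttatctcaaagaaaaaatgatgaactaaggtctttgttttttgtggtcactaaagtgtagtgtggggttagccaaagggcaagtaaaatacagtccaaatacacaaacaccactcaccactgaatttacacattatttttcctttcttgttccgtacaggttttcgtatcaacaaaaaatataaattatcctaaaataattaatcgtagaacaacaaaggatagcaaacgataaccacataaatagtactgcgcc
PP2CA: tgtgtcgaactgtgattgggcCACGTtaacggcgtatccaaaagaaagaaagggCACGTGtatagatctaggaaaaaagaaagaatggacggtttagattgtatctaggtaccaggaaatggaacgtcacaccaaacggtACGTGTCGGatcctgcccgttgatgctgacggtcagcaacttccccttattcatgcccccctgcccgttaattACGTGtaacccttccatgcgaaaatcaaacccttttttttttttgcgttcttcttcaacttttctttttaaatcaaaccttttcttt
ABI5: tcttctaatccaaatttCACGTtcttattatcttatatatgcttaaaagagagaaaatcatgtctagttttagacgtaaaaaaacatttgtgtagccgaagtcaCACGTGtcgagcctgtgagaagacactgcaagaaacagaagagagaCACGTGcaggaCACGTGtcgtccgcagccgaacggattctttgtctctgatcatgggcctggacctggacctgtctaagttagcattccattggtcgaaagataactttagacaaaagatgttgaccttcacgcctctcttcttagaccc

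Among all 38 members, 19 windows (50%) held ACGTG, beside 26.7% of the 27443 windows of the same length in the genome. They belonged to 2 of 8 receptors, 6 of 9 PP2Cs, 1 of 3 kinases, 4 of 7 factors, 3 of 7 synthesis genes and 3 of 4 CYP707A genes. The longer form ACGTGTC, contained in the count of ACGTG, was in 10 member windows and in 4.33% of all windows. CCGAC was in 5 member windows and in 15% of all. A match is a string of letters and not a binding site, and a window without a match says nothing of sites elsewhere.

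PYL4 (AT2G38310, chr2:16049918-16051356, plus strand) encodes a receptor of the group that stays monomeric without hormone. Its level was 21.8, 19.8 and 24.6 CPM in WT, 30.2, 24.7 and 28.7 CPM in large, and 42.1, 53.5 and 53.1 CPM in dwarf. Every dwarf library was above every other library, and the large libraries lay just above the highest WT library without overlap. The log2 fold change in dwarf was 1.17 ± 0.13 (SE; 95% interval 0.87 to 1.47, adjusted p = 0.00553). In large against WT it was 0.34 ± 0.13 (adjusted p = 0.202), which did not pass the threshold in edgeR's test. Limma voom called PYL4 there (0.41, adjusted p = 0.0141), beside 21.1% of all genes. The direct comparison of dwarf with large gave 0.83 ± 0.13 (95% interval 0.54 to 1.13, adjusted p = 0.0378). The call against WT held in 9 of 9 fits that left out a library, at adjusted p values up to 0.0414. The call of dwarf over large was lost without any of WT 1, WT 2, WT 3, large 1, large 2, large 3 and dwarf 2, with log2 fold changes of 0.75 to 0.94 over the 9 fits and adjusted p values up to 0.150. It was also lost in a fit of dwarf and large alone (adjusted p = 0.172).

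PYL5 (AT5G05440, chr5:1608988-1610527, plus strand), a close relative of PYL4, stood at 3.28, 3.22 and 3.19 CPM in WT. It was at 5.60, 4.90 and 5.55 CPM in large and at 7.47, 7.67 and 5.99 CPM in dwarf. The 3 groups did not overlap, with WT lowest and dwarf highest. PYL5 rose in both PPD3-RNAi groups, by 1.12 ± 0.14 on the log2 scale in dwarf (95% interval 0.82 to 1.43, adjusted p = 0.00647) and by 0.73 ± 0.14 in large (95% interval 0.42 to 1.03, adjusted p = 0.0274). Dwarf over large was 0.40 ± 0.13 (95% interval 0.10 to 0.70, adjusted p = 0.152). Limma voom called this difference (adjusted p = 0.0164), beside 19.0% of all genes. The call in dwarf held in 9 of 9 fits without a library, at adjusted p values up to 0.0462. The call in large was lost without WT 1, WT 2, WT 3, large 1, large 2 or large 3, with log2 fold changes of 0.68 to 0.79 over the 9 fits and adjusted p values up to 0.124.

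PYL6 (AT2G40330, chr2:16844588-16846194, minus strand), the third gene of this branch, was scarce. It had 1.12, 0.907 and 0.911 CPM in WT, 1.05, 1.48 and 2.51 CPM in large, and 4.06, 3.09 and 2.25 CPM in dwarf. Dwarf did not overlap with WT, while large overlapped with both. It rose in dwarf by 1.68 ± 0.35 on the log2 scale (95% interval 0.89 to 2.46, adjusted p = 0.0229). That call was lost without WT 1, WT 2, WT 3, dwarf 1 or dwarf 2, with log2 fold changes of 1.45 to 1.86 over the 9 fits and adjusted p values up to 0.0967. In large the log2 fold change was 0.77 ± 0.35 (adjusted p = 0.281), and dwarf over large was 0.90 ± 0.34 (adjusted p = 0.187). Limma voom called the difference between dwarf and large (adjusted p = 0.0173), beside 19.0% of all genes.

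**Figure D2:**
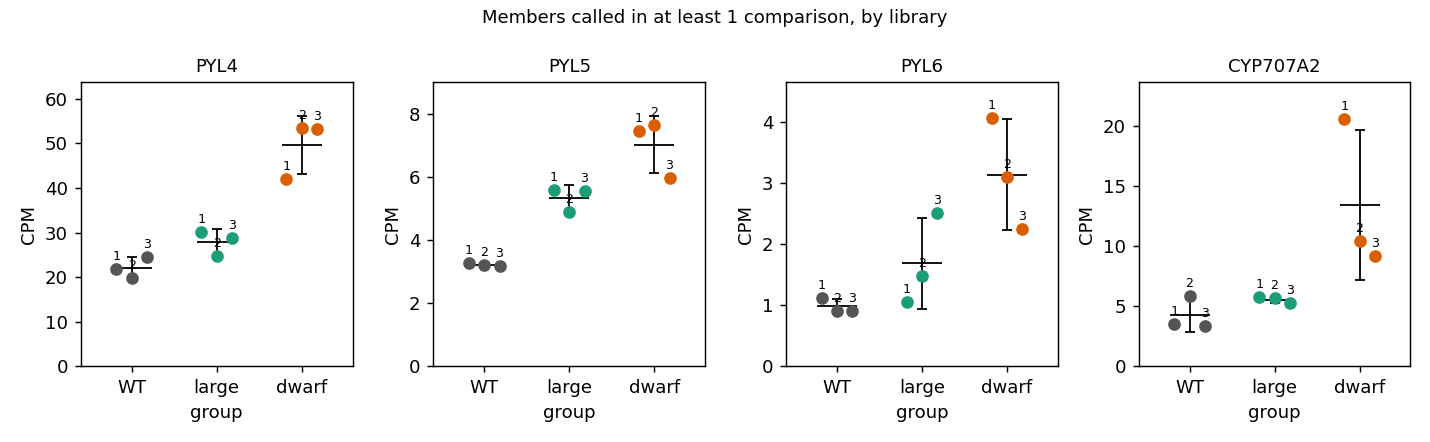
CPM by library for the 4 genes that passed the threshold in at least 1 comparison. Points are libraries numbered by replicate, and bars are the mean ± SD of 3. In every panel the 3 dwarf points lie above the 3 WT points, and only for PYL4, PYL5 and CYP707A2 also above the 3 large points.

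The other 5 receptors did not pass the threshold in edgeR's test of all libraries in any comparison. Limma voom called PYR1 and PYL8 between dwarf and large, where it called 19.0% of all genes. PYL8 (AT5G53160), a monomeric receptor with known roles in root growth, had the highest mean RPKM of the 8 member receptors over the 9 libraries. It was at 40.2, 43.8 and 42.1 CPM in WT, 47.1, 46.2 and 51.6 CPM in large, and 41.5, 37.9 and 47.7 CPM in dwarf. Its large libraries were above its WT libraries without overlap (log2 fold change 0.20 ± 0.10, adjusted p = 0.323), and dwarf overlapped with both. PYR1, PYL1, PYL2 and PYL9 had log2 fold changes between -0.19 and 0.08 in dwarf and between -0.01 and 0.15 in large. PYR1, a receptor that forms dimers and was chosen here after its values were seen, was lower in each dwarf library than in each large library, with a log2 fold change of -0.35 ± 0.11 (adjusted p = 0.135).

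Set per length, these changes altered the mix of transcripts of the 8 member receptors. PYL7, a receptor of the further list below, is not in the ranks, shares and sums given here. Its means were 35.6 CPM in WT, 50.5 CPM in large and 49.2 CPM in dwarf, over 1240 exon bases. Per length, that is above PYL8 (1828 bases) in WT and above PYL4 (1439 bases) in dwarf. Genes on the other strand overlap 54.8% of the span of PYL7, introns included, so its counts are uncertain to an extent not known. In RPKM, which is CPM divided by the exon length in kilobases, the order of levels in WT was PYL8 (23.0 ± 0.974), PYR1 (19.8 ± 1.45), PYL4 (15.3 ± 1.68), PYL1 (12.0 ± 1.23), PYL9 (8.84 ± 0.607), PYL5 (2.097 ± 0.0321), PYL6 (0.610 ± 0.0774) and PYL2 (0.528 ± 0.0202), each as mean ± SD of 3 libraries. In dwarf PYL4 was first of the 8 at 34.5 ± 4.53 RPKM, followed by PYL8 at 23.2 ± 2.695 RPKM and PYR1 at 17.3 ± 1.78 RPKM. The level of PYL4 was above that of PYL8 in every dwarf library and below it in every WT and large library. PYL4, PYL5 and PYL6 together made up 21.4, 21.0 and 23.4% of the summed receptor RPKM in WT, 26.8, 24.5 and 25.0% in large, and 38.3, 42.5 and 38.6% in dwarf. The 3 groups did not overlap in this share, which rests on the same values as the tests of the genes above. The summed receptor RPKM was 82.1 ± 3.51 in WT, 93.9 ± 7.01 in large and 102.9 ± 6.97 in dwarf. PYR1 plus PYL1 held 31.7 ± 2.65 RPKM in WT, 34.0 ± 3.12 in large and 29.9 ± 2.14 in dwarf, and PYL8 plus PYL9 held 31.8 ± 0.425, 35.5 ± 1.89 and 31.5 ± 3.42 RPKM. Both sums overlapped between WT and dwarf.

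**Figure D3:**
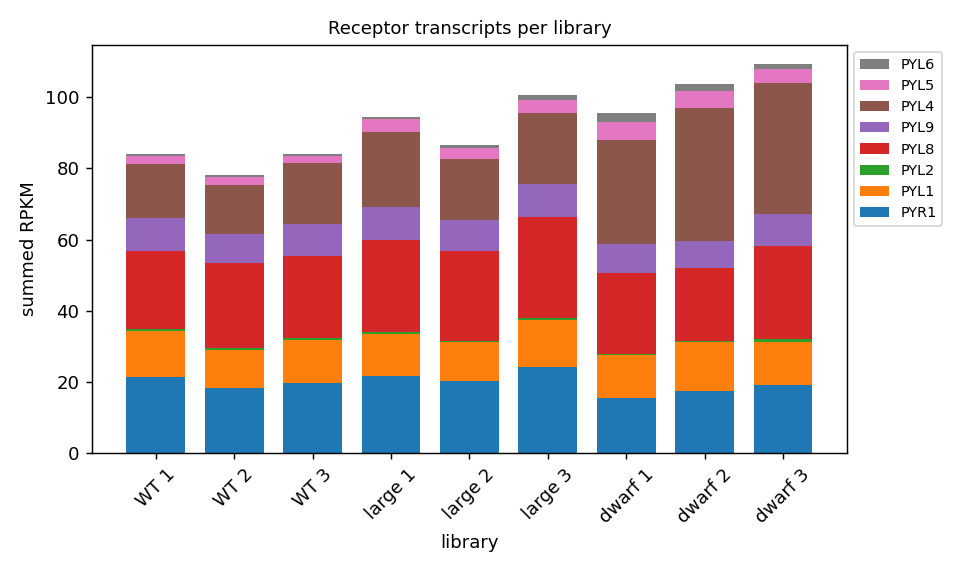
Summed RPKM of the 8 receptors in each library, stacked by gene. The part held by PYL4, PYL5 and PYL6 at the top of each bar was 16.4 to 19.7 RPKM in WT, 21.2 to 25.3 RPKM in large and 36.6 to 44.1 RPKM in dwarf.

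None of the 7 tested PP2C genes passed the threshold in edgeR's test in any comparison. At an unadjusted p under 0.05 stood 3 in dwarf (42.9%), 0 in large and 2 between dwarf and large (28.6%), beside 26.2, 18.7 and 19.9% of all genes. By DESeq2's Wald test ABI2 passed in dwarf, and by limma voom ABI2 and HAB2 did, there and between dwarf and large. DESeq2 called 16.0% of all genes in dwarf, and limma voom 23.3% in dwarf and 19.0% between dwarf and large. In dwarf 6 of the 7 had negative log2 fold changes, beside 8655 of all 19870 genes, with a median of -0.38 beside 0.05 for all genes tested. In large the median was -0.01 beside 0.01. ABI1 (AT4G26080), a PP2C first found through ABA-insensitive mutants and the phosphatase gene with the highest RPKM, was at 82.6, 84.4 and 75.3 CPM in WT, 74.7, 98.7 and 65.0 CPM in large, and 89.8, 59.2 and 54.4 CPM in dwarf. The groups overlapped. ABI2 (AT5G57050), its closest homologue and the PP2C gene with the smallest p, was at 16.4, 16.1 and 16.3 CPM in WT, 15.9, 20.9 and 11.8 CPM in large, and 12.8, 7.14 and 9.60 CPM in dwarf. The WT libraries lay close together, and each dwarf library was below each WT library. The log2 fold change in dwarf was -0.73 ± 0.24 (95% interval -1.27 to -0.18, adjusted p = 0.0953). It ranged from -0.96 to -0.54 over the 9 fits without a library.

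In large the order of the libraries was the same for every tested PP2C gene, while in dwarf it varied. The library large 2 was the highest of its group for 7 of 7 tested PP2Cs and large 3 the lowest for 7 of 7, beside 37.4 and 36.2% of all genes. The library dwarf 1 was the highest of its group for 6 of 7, beside 39.1% of all genes, and dwarf 3 for HAB2. The lowest was dwarf 3 for 4 of 7 and dwarf 2 for 3 of 7, beside 40.6 and 22.8% of all genes. HAB2 and HAI2 lie in a run of neighbouring genes on chromosome 1 that stood 1.41 times above WT in dwarf 3. HAB1 lies in another, which stood 1.43 and 1.46 times above WT in dwarf 1 and dwarf 2. The order of the dwarf libraries for these genes with the runs taken out was not tested. HAI1 (AT5G59220), an ABA-induced PP2C singled out after its values were seen, had the widest spread of the tested members in dwarf and in large, with 10.4, 14.1 and 15.0 CPM in WT, 8.99, 32.6 and 8.16 CPM in large, and 22.1, 5.38 and 2.78 CPM in dwarf. Its highest dwarf library was 7.96 times its lowest and its highest large library 3.99 times its lowest, against 1.44 times in WT. The median of this ratio over all genes tested was 1.40 in dwarf, 1.20 in large and 1.16 in WT, and HAB2 lay below it in each group at 1.28, 1.09 and 1.07. With this spread the 95% interval of the log2 fold change of HAI1 in dwarf ran from -2.09 to 1.32. NCED3, CYP707A1 and ABI5, also singled out after their values were seen, had dwarf 1 as the highest and dwarf 3 as the lowest library of dwarf, with ratios of 3.73, 5.59 and 3.90. Over all genes, the deviations from the group mean in dwarf 1 and large 2 had a correlation of 0.575, and those in dwarf 3 and large 3 of 0.426, the highest among pairs of libraries from different groups. The lowest were -0.508 for dwarf 3 and large 2 and -0.480 for dwarf 1 and large 3. Deviations within a group sum to 0, so these values are tied to one another. These are correlations across genes within pairs of libraries, and genes are not independent replicates.

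**Figure D4:**
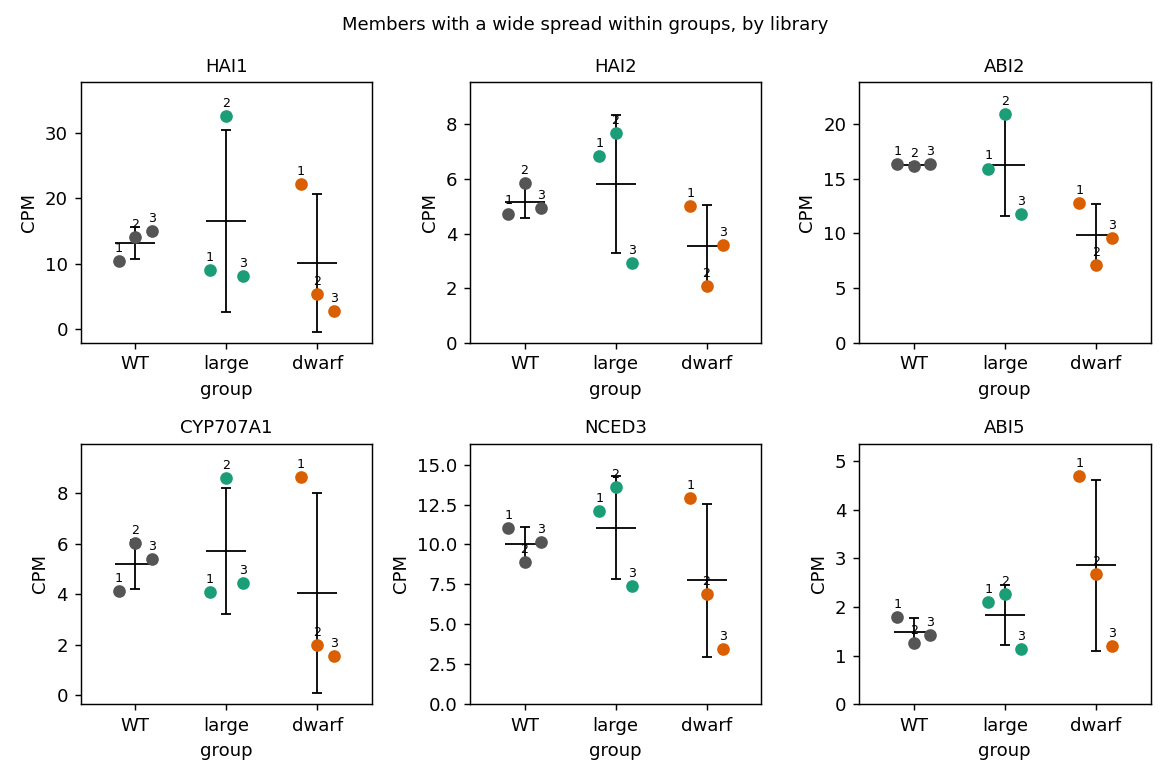
CPM by library for 6 genes with a spread within groups, chosen after their values were seen and not by rank of spread. Points are libraries numbered by replicate, and bars are the mean ± SD of 3. For all 6 genes large 2 is the highest large library and dwarf 1 the highest dwarf library. The order depends on the choice of genes. PYL2, HAB1 and NCED5, not shown, had highest over lowest dwarf libraries of 2.85, 2.76 and 2.69, above HAI2 (2.44) and ABI2 (1.79). HAB1 had the same highest libraries as the 6, while PYL2 and NCED5 had dwarf 3 highest and large 2 lowest.

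The ratio of summed receptor RPKM (the 8 members, without PYL7) to summed PP2C RPKM was 0.696, 0.596 and 0.753 in WT, 0.819, 0.570 and 1.05 in large, and 0.759, 1.23 and 1.32 in dwarf. Each dwarf value was above each WT value, by little for dwarf 1. Large overlapped with both groups.

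The 3 kinase genes encode the SnRK2s that ABA activates most strongly. None passed the threshold in edgeR's test in any comparison, with 1 (33.3%) at an unadjusted p under 0.05 in dwarf, beside 26.2% of all genes. DESeq2's Wald test called SNRK2.2 in dwarf, beside 16.0% of all genes. Limma voom called SNRK2.2 in large and SNRK2.3 between dwarf and large, beside 21.1 and 19.0% of all genes. SNRK2.2 (AT3G50500), the kinase gene with the highest RPKM and the smallest p, was at 203, 199 and 184 CPM in WT, 172, 168 and 169 CPM in large, and 166, 177 and 146 CPM in dwarf. Both PPD3-RNAi groups were below WT without overlap. Its log2 fold change was -0.26 ± 0.09 in dwarf (95% interval -0.47 to -0.04, adjusted p = 0.123) and -0.20 ± 0.09 in large (adjusted p = 0.295). SNRK2.3 and OST1, the guard-cell kinase, had log2 fold changes of -0.10 and -0.16 in dwarf and 0.06 and -0.01 in large. Genes on the other strand overlap 15.4% of the span of SNRK2.3. Reads of either strand look alike in these libraries, so its counts are uncertain to an extent not known.

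Of the 7 transcription factor genes, ABI3 and ABI4, seed factors, were too low to test. ABI4 had 0 counts in all 9 libraries, where a count of 0 allows up to 3 counts per library, or 0.0821 to 0.0925 CPM. None of the 5 tested factors passed the threshold in edgeR's test. At an unadjusted p under 0.05 stood 2 in dwarf (40%), 3 in large (60%) and 0 between dwarf and large, beside 26.2, 18.7 and 19.9% of all genes. DESeq2's Wald test and limma voom called ABF2 and ABF3 in dwarf, beside 16.0 and 23.3% of all genes. Limma voom called ABF1 in large, beside 21.1% of all genes. ABF1 (AT1G49720), the factor with the highest RPKM, was at 60.2, 65.8 and 57.1 CPM in WT, 54.6, 47.8 and 48.9 CPM in large, and 57.2, 53.5 and 47.9 CPM in dwarf. Its large libraries were below its WT libraries without overlap, at a log2 fold change of -0.28 ± 0.10 (adjusted p = 0.165), and dwarf 1 reached the lowest WT library. ABF2 (AT1G45249), the factor with the smallest p, was at 23.5, 25.2 and 21.5 CPM in WT, 20.8, 19.1 and 18.9 CPM in large, and 18.9, 19.4 and 16.6 CPM in dwarf. Both PPD3-RNAi groups were below WT without overlap. Its log2 fold change was -0.36 ± 0.10 in dwarf (95% interval -0.58 to -0.13, adjusted p = 0.0566) and -0.26 ± 0.10 in large (adjusted p = 0.196). It passed the threshold in dwarf when libraries were scaled by DESeq2 size factors or upper-quartile factors.

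In large, 4 of the 5 factors (ABF1, ABF2, ABF3 and ABF4) were lower than WT without overlap, beside 13.9% of all genes lower without overlap in that comparison. Their median log2 fold change over the 5 was -0.26 in large and -0.21 in dwarf, and dwarf 3 was the lowest dwarf library for all 5 (40.6% of all genes). ABF3, named after its values were seen, was at 37.7, 40.9 and 34.5 CPM in WT, 32.8, 25.1 and 22.7 CPM in large, and 32.9, 22.2 and 19.3 CPM in dwarf. In dwarf its log2 fold change was -0.60 ± 0.21 (adjusted p = 0.105). It passed the threshold in edgeR's test without dwarf 1. ABI5 had 1.80, 1.26 and 1.42 CPM in WT, 2.105, 2.27 and 1.14 CPM in large, and 4.69, 2.68 and 1.203 CPM in dwarf. The groups overlapped, and ABI5 passed the threshold in dwarf without dwarf 3. Genes on the other strand overlap 81.8% of ABF4 and 28.3% of ABF1, so their counts may hold reads of those neighbours.

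**Figure D5:**
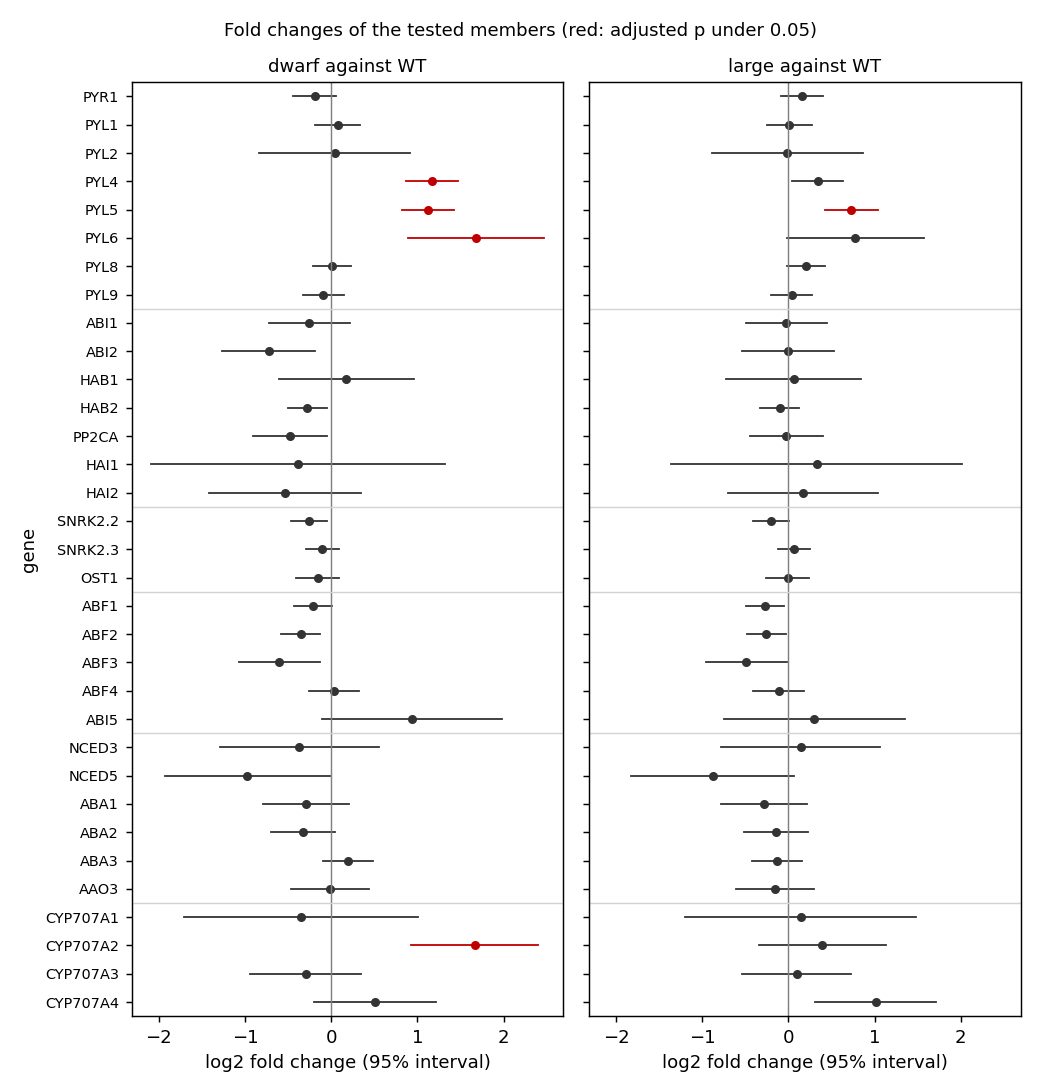
Log2 fold changes of the 33 tested genes in dwarf against WT (left) and large against WT (right), with 95% intervals from the quasi-likelihood fit. Red marks an adjusted p under 0.05. The 4 red genes at left all lie to the right of 0, and the only red gene at right is PYL5 at 0.73.

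Of the 7 synthesis genes, NCED9, which acts mainly in seeds, was too low to test, and none of the other 6 passed the threshold in edgeR's test. At an unadjusted p under 0.05 there was 1 in dwarf (16.7%), 0 in large and 1 between dwarf and large (16.7%), beside 26.2, 18.7 and 19.9% of all genes. By DESeq2's Wald test 0 passed in dwarf, and by limma voom ABA1 and ABA2 did, beside 16.0 and 23.3% of all genes. The median log2 fold change was -0.31 in dwarf and -0.15 in large. ABA1 (AT5G67030), zeaxanthin epoxidase, which also serves the xanthophyll cycle, had the highest RPKM and was at 295, 327 and 296 CPM in WT, 303, 223 and 227 CPM in large, and 242, 175 and 333 CPM in dwarf. The groups overlapped and dwarf spread widest. NCED5 (AT1G30100), a dioxygenase that cleaves the carotenoid precursor, was the synthesis gene with the smallest p and scarce, with 0.414, 0.790 and 0.683 CPM in WT, 0.370, 0.301 and 0.351 CPM in large, and 0.247, 0.195 and 0.525 CPM in dwarf. Large was below WT without overlap, and dwarf 3 reached into the WT range. Its log2 fold change in dwarf was -0.97 ± 0.42 (95% interval -1.93 to -0.01, adjusted p = 0.185), and it passed the threshold without dwarf 3 (-1.495, adjusted p = 0.0336). NCED5 lies in a run of neighbouring genes on chromosome 1 that stood above WT in dwarf 3. With the median step of that run taken out, its log2 fold change in dwarf was -1.19 (edgeR quasi-likelihood test, adjusted p = 0.0968). NCED3, the dioxygenase gene that drought raises, had 11.04, 8.89 and 10.13 CPM in WT, 12.1, 13.6 and 7.42 CPM in large, and 12.9, 6.89 and 3.46 CPM in dwarf, with overlap between all groups. ABA2, ABA3 and AAO3, which act in the last steps, had log2 fold changes of -0.33 to 0.20 in dwarf and -0.15 to -0.13 in large. Overlapping genes cover 25.3% of ABA2 and 14.6% of AAO3.

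CYP707A2 (AT2G29090, chr2:12494826-12499723, minus strand), the hydroxylase known to remove ABA in imbibed seeds, was the only breakdown gene called and had the highest mean RPKM of the 4. It was at 3.55, 5.82 and 3.33 CPM in WT, 5.75, 5.64 and 5.26 CPM in large, and 20.6, 10.5 and 9.20 CPM in dwarf. Each dwarf library was above all other libraries and dwarf 1 was the highest, while large lay within the WT range. CYP707A2 rose in dwarf by 1.66 ± 0.33 on the log2 scale (95% interval 0.93 to 2.403, adjusted p = 0.0191). The call was lost without WT 1 or WT 3 and in a fit of dwarf and WT alone (adjusted p = 0.0676), with log2 fold changes of 1.21 to 1.96 over the 9 fits and adjusted p values up to 0.0909. In large the log2 fold change was 0.39 ± 0.33 (adjusted p = 0.620). Dwarf over large was 1.27 ± 0.32 (95% interval 0.55 to 2.00, adjusted p = 0.0903). DESeq2's Wald test (adjusted p = 0.00525) and limma voom (adjusted p = 0.0157) called this difference, beside 8.59 and 19.0% of all genes. CYP707A2 held 30.8, 34.7 and 26.8% of the summed CYP707A RPKM in WT, 35.0, 26.6 and 36.3% in large, and 59.2, 64.7 and 62.4% in dwarf.

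The other CYP707A genes did not pass the threshold. CYP707A1 had 4.11, 6.03 and 5.41 CPM in WT, 4.10, 8.60 and 4.44 CPM in large, and 8.62, 1.98 and 1.54 CPM in dwarf. Its dwarf libraries lay on both sides of all WT libraries, and it passed the threshold in dwarf against WT without dwarf 1. CYP707A4, named after its values were seen, had 1.24, 1.32 and 1.37 CPM in WT, 3.36, 2.98 and 1.58 CPM in large, and 2.47, 1.64 and 1.48 CPM in dwarf. Both PPD3-RNAi groups were above WT without overlap, with log2 fold changes of 1.01 ± 0.31 in large (adjusted p = 0.111, called by limma voom) and 0.51 ± 0.31 in dwarf (adjusted p = 0.337). CYP707A3 had log2 fold changes of -0.30 in dwarf and 0.10 in large.

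Over all 33 tested members, 12 had positive and 21 negative log2 fold changes in dwarf, beside 11215 and 8655 of all genes tested. The median was -0.19 beside 0.05 for all genes tested. In large 17 were positive and 16 negative, beside 10298 and 9572 of all genes, with a median of 0.01 beside 0.01. Without overlap between the groups were 10 members in dwarf against WT, or 30.3% beside 28.9% of all genes. Of these, 5 were higher and 5 lower, beside 16.8 and 12.2% of all genes. In large against WT there were 11, or 33.3% beside 33.6%, with 4 higher and 7 lower, the latter 21.2% of the members, beside 19.7 and 13.9%. In dwarf against large there were 4, or 12.1% beside 20%, with 3 higher and 1 lower beside 8.79 and 11.2%. Without library dwarf 3, edgeR called 8 members in dwarf against WT, adding HAB2, ABI5, NCED5 and ABA2, and 7 between dwarf and large, adding PYR1, PYL5, HAB2, SNRK2.3, ABA2 and CYP707A2. In these fits 22.3 and 16.1% of all genes were called. The 5 untested members had at most 30 counts in any library, and that highest count was of AHG1, a seed PP2C, in large 2. AHG1 had 0 to 7 counts in the other libraries.

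Another 50 genes of the ABA pathway were counted in the same fits, namely further receptors, kinases, synthesis, conjugation and transport genes, regulators and known targets. Of these, 43 were tested. In dwarf 2 rose and 2 fell, together 9.3% of those tested beside 8.76% of all genes. Among the 17 targets 2 fell (11.8%) and none rose, beside 2.22% of all genes called lower and 6.54% higher. Of the 17, 13 had negative log2 fold changes, beside 8655 of all 19870 genes, with a median of -0.40 beside 0.05 for all genes. The targets did not move alike in every dwarf library. HB7, HB12, NAC019 and NAP, ABA-induced transcription factors named after their values were seen, stood above every WT library in dwarf 1 and large 2. HB7 was at 34.8 CPM in dwarf 1 and 36.6 CPM in large 2, beside at most 27.0 CPM in WT. NAC019 was at 57.3 and 62.5 CPM, beside at most 35.5 CPM in WT. In the other 2 libraries of each PPD3-RNAi group HB7 lay between 10.06 and 18.6 CPM, below every WT library. RD22, a dehydration-responsive gene, was at 509, 519 and 496 CPM in WT, 420.3, 375 and 416 CPM in large, and 290.0, 319 and 385 CPM in dwarf. Its dwarf and large libraries were all below WT. RD22 fell by 0.62 ± 0.12 on the log2 scale in dwarf (adjusted p = 0.0193), a call lost without WT 1, WT 2, WT 3 or dwarf 2 (-0.74 to -0.53, adjusted p up to 0.0831).

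P5CS1, which makes proline under drought, was at 274, 322 and 201 CPM in WT, 234, 213 and 202 CPM in large, and 108, 96.2 and 179 CPM in dwarf. Dwarf was below both other groups without overlap. P5CS1 fell by 1.06 ± 0.25 on the log2 scale in dwarf (adjusted p = 0.0337). The call was lost without WT 1, WT 2, large 1, large 3, dwarf 1 or dwarf 2 (-1.38 to -0.89, adjusted p up to 0.125).

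RBOHF, an oxidase that makes reactive oxygen in guard-cell ABA responses, was at 15.8, 14.1 and 14.7 CPM in WT, 19.0, 22.8 and 19.3 CPM in large, and 53.4, 28.6 and 20.8 CPM in dwarf. Dwarf 1 stood far above the others, and both PPD3-RNAi groups were above WT. RBOHF rose in dwarf by 1.21 ± 0.29 on the log2 scale (adjusted p = 0.0383), a call kept in 2 of 9 fits without a library, those without dwarf 1 and dwarf 3 (0.73 to 1.46 over the 9 fits, adjusted p up to 0.134). NPF4.6, an ABA importer, was at 38.0, 32.7 and 36.1 CPM in WT, 39.4, 35.1 and 32.3 CPM in large, and 80.5, 67.7 and 42.0 CPM in dwarf. It rose in dwarf by 0.83 ± 0.21 on the log2 scale (adjusted p = 0.0416), a call kept only without dwarf 3 (0.62 to 1.06 over the 9 fits, adjusted p up to 0.148). No gene of this list passed the threshold in edgeR's test in large or between dwarf and large. In large 5 (11.6%) had an unadjusted p under 0.05, and DESeq2 called 5 and limma voom 7. Of all genes the shares were 18.7, 9.22 and 21.1%. Between dwarf and large the counts were 13 (30.2%), 6 and 13, beside 19.9, 8.59 and 19.0% of all genes.

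Gene counts per library summed to 34660392 to 35217754, so depth differed little. Along the chromosomes, runs of neighbouring genes stood 1.41 to 1.92 times above WT in the PPD3-RNAi libraries, on chromosome 1 in dwarf, chromosome 3 in dwarf 1 and large, and chromosome 4 in all 6. They held 4886 of the tested genes and 7 members: PYL9, HAB2, HAI2, NCED5 and ABA3 in dwarf 3, and HAB1 and NCED9 in dwarf 1 and 2. PYL4, PYL5, PYL6 and CYP707A2 lie outside them. The receptor PYL7, not a member, lies in the chromosome 4 run of all 6 libraries. Both PPD3-RNAi groups were above WT without overlap for PYL7. Its log2 fold changes were 0.47 in dwarf (adjusted p = 0.0578) and 0.50 in large (adjusted p = 0.0663; edgeR quasi-likelihood test). They became -0.23 and -0.04 with the run's median step taken out. With each run's median step taken out, the log2 fold change of HAB2 in dwarf moved from -0.28 to -0.45 (adjusted p = 0.0205) and that of NPF4.6, inside the chromosome 1 run of dwarf 1 and 2, from 0.83 to 0.44 (adjusted p = 0.0789).

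Of 22 markers of tissues that could differ in share, 12 were tested and 1 was called, XCP1 of xylem, which fell by 0.76 on the log2 scale in dwarf (adjusted p = 0.00992). The summed xylem markers were at 48.9 to 55.9 CPM in WT, 49.9 to 53.7 CPM in large and 30.6 to 46.3 CPM in dwarf. The summed guard-cell markers, of a cell type where ABA acts, were at 21.9 to 23.5 CPM in WT, 19.8 to 24.8 CPM in large and 21.4 to 22.6 CPM in dwarf. The seed marker EM6 was highest in dwarf 1 (3.43 CPM) and large 2 (1.64 CPM), beside 0.0558 to 0.541 CPM in the other libraries. The seed markers OLEO1, EM1 and SESA2, too low to test, did not follow it. Their highest dwarf library was dwarf 3, at 0.278, 0.0926 and 0.185 CPM, and in large 2 they had 0, 0.0274 and 0.0547 CPM. The 3 summed leaf markers were at 18335 to 21019 CPM in WT, 13253 to 18841 CPM in large and 10831 to 22545 CPM in dwarf. Of these, CAB3 was lower in each large library than in each WT library (log2 fold change -0.66, adjusted p = 0.475). The summed floral markers overlapped, at 0.965 to 1.22 CPM in WT, 0.739 to 1.59 CPM in large and 0.725 to 1.23 CPM in dwarf. Of these, AG, at 0.702 to 0.825 CPM in WT and 0.220 to 0.339 CPM in dwarf, was lower in dwarf without overlap (-1.42, adjusted p = 0.0755). PI, SEP3, AP3 and AP1, too low to test, went the other way, with higher means in dwarf than in WT. The summed root markers stayed at or below 0.0877 CPM, and RHD6 had 0 counts in all. The part of tissue shares in the changes of the members was not tested.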

How the data were processed

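For each library the authors deposited a table of whole-number read counts by gene, with no normalization. Per the labels' protocols, RNA came from a NucleoSpin kit, libraries followed the TruSeq version 2 guide, a method that keeps no strand information, and 100 bp paired reads were made on a DNBseq instrument. The TAIR10 build, STAR 2.7.0a and Trim Galore 0.4.1 are named, with no settings, per the submitters' processing notes. How reads were assigned to genes, and whether by strand, is not stated in the sources. The 5 lines that name no gene were left out (0.228 to 0.309% ambiguous and 0.642 to 0.900% outside genes).

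In R 4.3.3, filterByExpr kept 19870 genes, TMM factors were 0.935 to 1.05, and edgeR 4.0.16 tested all 3 comparisons with quasi-likelihood F tests from a single model of the 9 libraries without a block. Called means a Benjamini-Hochberg adjusted p below 0.05 across all those genes. The standard error (SE) divides the size of the log2 fold change by the root of its F value. CPM used the TMM-scaled totals, and RPKM divided them by the exon length of the RefSeq TAIR10.1 annotation, in which all 38 names matched. P-values set the difference between groups against the spread between these biological replicates, estimated over all 3 groups together.

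Values in all libraries were given for members called in any comparison, and for the member of each step with the highest mean RPKM and with the smallest p in dwarf against WT. Called genes of the pathway list were named. Other genes named were chosen after their values were seen. Members, lists, tests and alternatives were chosen with earlier results of these data known. The code was first checked on simulated counts.

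Alternatives were DESeq2 1.42.0 size factors or Wald test, upper-quartile factors, no filter or 1 CPM in 3 libraries, a model of just the 2 groups compared, limma 3.58.1 voom with quality weights, the replicate number as a block, each library left out, and the raised chromosome runs left out or their median step taken out. Runs came from splitting log2 ratios to the WT mean along chromosomes (genes from 5 CPM, ratios limited to 1.5, 50 or more genes a run, steps from 0.2, a split statistic from 8) and counted as raised from a median of 0.3.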

Additional observations from a re-analysis of the deposited data

Results flagged for a closer look

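PYL4 was marked because its effect differed between the PPD3-RNAi groups under the same contrast with WT. The log2 effect in dwarf minus that in large was 0.83. As both effects use the same WT mean, the test of this difference is that of dwarf against large (edgeR quasi-likelihood test, adjusted p = 0.0378), and all 3 dwarf libraries were above all 3 large libraries. No other member passed that test. Groups of 3 libraries are too small for the check of single outlying samples.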

How the results depend on the processing

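PYL4 and PYL5 remained called in dwarf against WT under all 19 alternatives. In that comparison none of the log2 fold changes of PYL4, PYL5, PYL6, CYP707A2, ABI2, SNRK2.2, ABF2, NCED5, RD22, P5CS1, RBOHF and NPF4.6 changed direction. Other members did. HAB1 in dwarf went from 0.17 to -0.24 with the step of the raised runs taken out, HAI1 and CYP707A1 in dwarf changed sign without dwarf 3, and under another scaling the sign changes were of PYL1, PYL2, PYL8 and ABF4, whose log2 fold changes were at most 0.05 in size. The median over all genes in dwarf went from 0.05 to -0.03 with upper-quartile factors and -0.01 with the step taken out. The 4 members called in dwarf became 8 with DESeq2's Wald test and 10 with limma voom, and 2 to 8 with a library left out. The 1 member called in large against WT became 5 with limma voom, and 0 to 1 with a library left out. The 1 member called between dwarf and large became 0 in a fit of those groups alone, 2 with DESeq2 and 9 with limma voom, and 0 to 7 with a library left out. Of the other pathway genes, the 4 called in dwarf became 0 in a fit of 2 groups, 11 with DESeq2, 15 with limma voom and 1 with the genes of the raised runs left out, and 0 to 14 with a library left out. The count of 0 in large became 5 in a fit of 2 groups, 5 with DESeq2 and 7 with limma voom, and 0 to 3 with a library left out. The count of 0 between dwarf and large became 6 with DESeq2 and 13 with limma voom, and 0 to 12 with a library left out. The cause of these differences was not tested. All genes called in dwarf numbered 1740, and 467 in the fit of 2 groups, 3184 with DESeq2, 4626 with limma voom, and 266 to 4477 with a library left out. In large there were 838, and 2205, 1833, 4192 and 9 to 1599 in the same order. Between dwarf and large there were 129, and 0, 1706, 3781 and 0 to 3236.

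Same-numbered replicates had correlations of their deviations between -0.240 and 0.426, so the numbers were not taken as pairs. With the replicate number as a block, 4 members were called in dwarf (PYL4, PYL5 and CYP707A2 higher, ABF3 lower), 0 in large and 0 between dwarf and large, and PYL6 in dwarf had an adjusted p of 0.0514. Of the other pathway genes 3 were called in dwarf, where RD22 and NPF4.6 passed and P5CS1 (adjusted p = 0.0695) and RBOHF (0.0550) did not, and 0 in both other comparisons. The tested members with the fewest counts were NCED5, PYL2 and CYP707A3, at means of 14.9, 23.7 and 55.2 counts per library.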
